A study of Homo sapiens with 2 samples.

Results

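The genes described here encode the chaperones of the endoplasmic reticulum (ER), the sensors and transcription factors of the unfolded protein response, and the machinery that sends misfolded ER proteins to the proteasome. They are a list of 37 genes, taken from the table of gene counts by symbol, and a gene was kept when the ZMAT2 IP and Input libraries together held at least 20 reads for it. Of the 37 genes, 36 were kept, among 17915 kept of 56303 genes in the table. DERL3 was the gene left out, with 8 reads in the ZMAT2 IP and 0 in Input, and the kept gene with the fewest reads was ERN1, with 384 in all.

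The data came from HUH7, an established human hepatocellular carcinoma cell line, and comprised 2 RNA libraries. The ZMAT2 IP library held RNA recovered from 80% of a cell lysate with an antibody against ZMAT2, a protein of the spliceosome before its activation. The Input library held RNA of 10% of the lysate, set aside before precipitation. No treatment or genetic change is given for either group. Each group held 1 library, so there was no replicate check, no test was possible and no p-value is given. The study asked how ZMAT2 bears on hepatocellular carcinoma through splicing, and counts per gene do not separate spliced from unspliced RNA.

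Reads in genes numbered 25047635 in the ZMAT2 IP and 23485789 in Input. ZMAT2's own mRNA had 36553 IP reads against 5187 Input reads, a log2 ratio (IP over Input) of 2.83, with a 95% counting interval on read pairs of 2.77 to 2.89. Gene positions below are on GRCh38, as the table gives them. All 9 hepatocyte markers examined were kept, with at least 2086 reads each in the IP and 2387 in Input. COL1A1, DCN, CD3E, KDR, CDH5 and MZB1, markers of fibroblasts, T cells, endothelium and plasma cells, had no read in either library. In the same sets COL3A1 had 58 IP reads against 30 Input reads, PDGFRB 75 against 57, COL1A2 46 against 54 and PECAM1 252 against 341, all kept. Among the other markers, LYZ (6011 IP reads against 8837 Input reads) and SDC1 (3921 in the IP and 3390 in Input) had the most reads. CD68 had 159 IP reads against 174 Input reads and CD14 70 against 32, both kept. VWF, with 10 against 0, ACTA2, with 4 against 5, and PTPRC and JCHAIN, with 0 against 1 each, were not kept. An IgG precipitation is named in the labels and was not analysed here, so a ratio alone is no evidence of binding.

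Proteins that enter the ER are folded by HSPA5 (BiP), an Hsp70 chaperone driven by J-domain partners, and by HSP90B1 (GRP94), while calnexin and calreticulin hold glycoproteins and protein disulfide isomerases form their disulfide bonds. When unfolded proteins accumulate, the membrane proteins IRE1 (gene ERN1), PERK (gene EIF2AK3) and ATF6 signal to the nucleus through the transcription factors XBP1, ATF4 and cleaved ATF6, which raise transcription of chaperone and degradation genes. Hepatocytes secrete large amounts of plasma protein and are known for a well developed ER.

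The promoters of the list carry letters by which this response is known to act, and these are shown because several of the most abundant chaperone genes of the list hold them. The ER stress response element (ERSE), which reads CCAAT, 9 bases of any kind and CCACG, was searched on both strands in the window reaching from 250 bases before to 50 bases after each RefSeq start site (GRCh38.p14). It was found in 6 of the 34 genes of the list that have a window, or 17.6%, and in 25 of all 27305 genes with a window, or 0.0916%. The list is made of genes already known for this response, so these shares are a description and no finding of these data. The sites below are written along the strand of the gene, with the fixed letters of the element in capitals. On the opposite strand the element reads CGTGG, 9 bases, ATTGG.
HSPA5, chr9:125241386-125241414, minus strand, 66 to 48 bases before the start: cttcaCCAATcggcggcctCCACGacggg
HSP90B1, chr12:103930211-103930239, plus strand, 194 to 176 bases before the start: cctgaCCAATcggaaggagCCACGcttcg
HSP90B1, chr12:103930316-103930344, plus strand, element on the opposite strand: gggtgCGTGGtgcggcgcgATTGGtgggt
CALR, chr19:12938379-12938407, plus strand, element on the opposite strand: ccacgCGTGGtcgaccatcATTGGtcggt
CANX, chr5:179698773-179698801, plus strand, at a distance that differs between RefSeq starts of the gene: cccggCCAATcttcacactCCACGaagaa
PDIA6, chr2:10812848-10812876, minus strand, 86 to 68 bases before the start: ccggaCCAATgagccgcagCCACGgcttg
XBP1, chr22:28800598-28800626, minus strand, 52 to 34 bases before the start: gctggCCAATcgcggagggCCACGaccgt

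The 150 bases before the HSPA5 start, chr9:125241344-125241493 on the minus strand, place its element next to the start of transcription.
HSPA5: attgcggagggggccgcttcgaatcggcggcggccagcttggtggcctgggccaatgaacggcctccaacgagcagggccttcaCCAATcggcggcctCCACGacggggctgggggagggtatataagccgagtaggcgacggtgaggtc

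Shorter elements of the response were rarer on the list. ERSE-II, which reads ATTGG, 1 base of any kind and CCACG, was found in HERPUD1, HYOU1 and SDF2L1, or 8.82% of the 34 genes, against 0.0696% of all genes with a window. HYOU1, whose product is a large Hsp70-related chaperone, held it at 2 places, and both are printed with those of HERPUD1 and SDF2L1 for comparison.
HYOU1, chr11:119057375-119057395, minus strand, element on the opposite strand: cgtgaCGTGGtCCAATcccag
HYOU1, chr11:119057269-119057289, minus strand, element on the opposite strand: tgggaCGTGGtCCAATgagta
HERPUD1, chr16:56932020-56932040, plus strand: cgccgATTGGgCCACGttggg
SDF2L1, chr22:21642109-21642129, plus strand, element on the opposite strand: ggaagCGTGGaCCAATcaaaa

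TGACGTGG, the core of the unfolded protein response element, was found in DNAJC10, HYOU1 and TXNDC5, against 0.927% of all genes, and in HYOU1 it overlaps the ERSE-II that lies farther from the start by the letters CGTGG. TGATGNAA, the core of the amino acid response element bound by ATF4, was found in HERPUD1 alone among the 34, or 2.94%, against 4.46% of all genes. A match is a description of these letters in this window, and no share of genes with a match was tested.

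Levels are given as RPKM, reads scaled to merged exon length and to the TMM-scaled size of the library, where TMM sets the bulk of genes equal between libraries. Across the kept genes they ran from 0.85 RPKM for ERN1 to 853 RPKM for CALR in the ZMAT2 IP, and from 0.608 to 1048 RPKM for the same genes in Input. The 6 genes with an ERSE had a median of 170 RPKM in the IP and 237 RPKM in Input. The 28 kept genes with a window and no ERSE had medians of 11.7 RPKM in the IP and 14.7 RPKM in Input. In Input every ERSE gene lay at or above 95.8 RPKM, and genes without it reached up to 214 RPKM, so the levels overlap. HSP90B1, CALR and CANX alone took 49.2% of the list's reads in the IP and 51.4% in Input. The ratio of IP over Input did not follow this split: its median was -0.22 with an ERSE and -0.25 without, as log2 values. Merged exon length joins all isoforms, so the level of a gene with long alternative exons, such as DNAJC10 with 21826 bases, is understated.

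**Figure D1:**
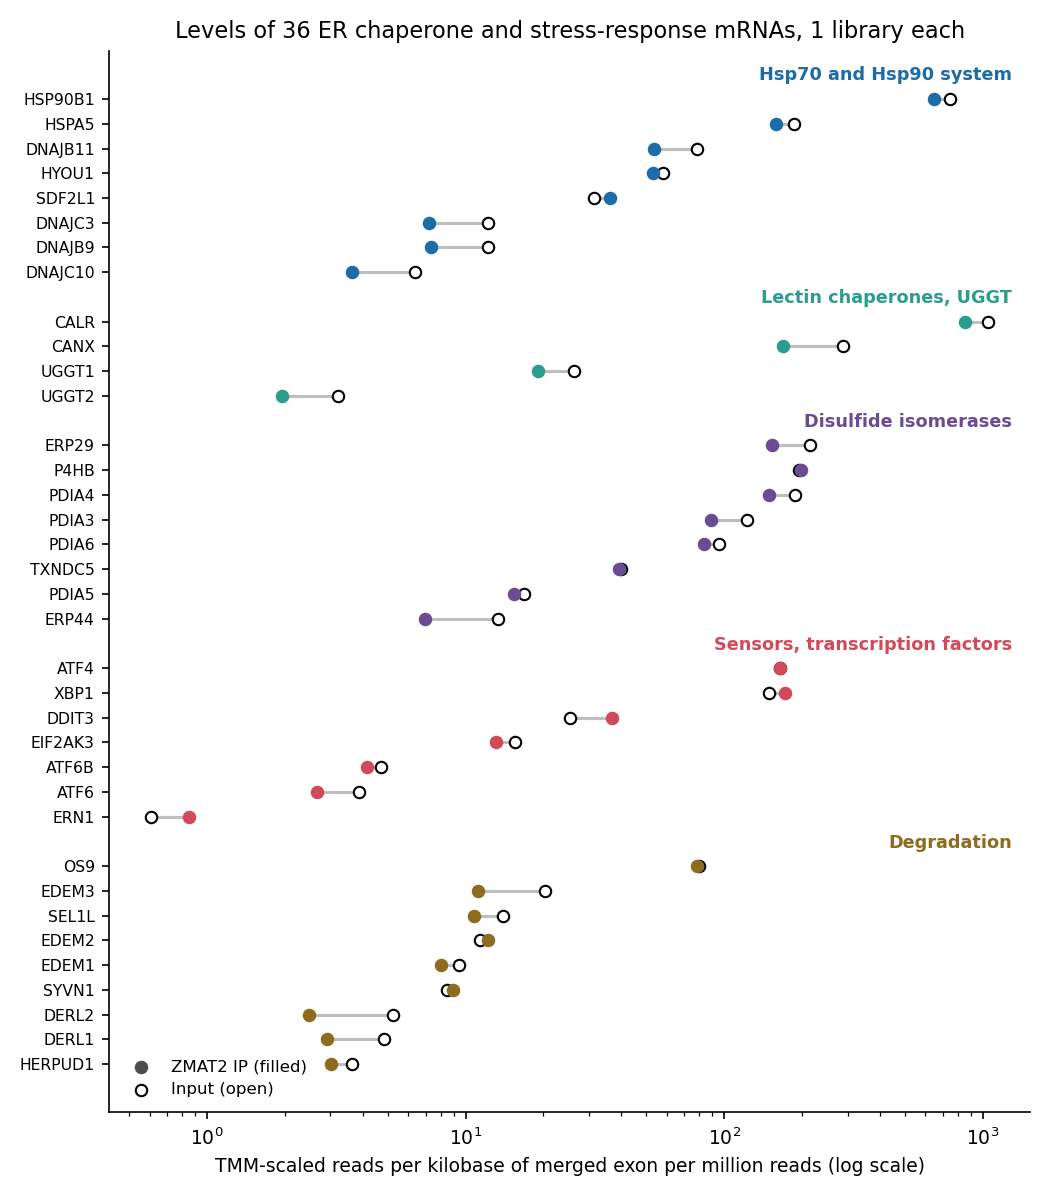
Level of each of the 36 kept genes in the ZMAT2 IP (filled) and Input (open) libraries, in RPKM on a log axis, grouped by role and ordered by Input level. The chaperones CALR and HSP90B1 stand highest, ERN1 stands lowest, and for most chaperones the IP point lies left of the Input point.

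The mRNAs of the list stood somewhat lower in the ZMAT2 IP than in Input, by less than 2-fold for nearly every gene. Together the 36 genes took 314875 reads or 1.26% of the IP library (1.25% to 1.26%), and 386396 reads or 1.65% of Input (1.64% to 1.65%). These shares are not TMM-scaled, and the summed reads had a TMM-scaled log2 ratio of -0.28. The median log2 ratio of the 36 genes, IP over Input, was -0.25, an IP level 0.838 times that of Input, against 0.01 for all kept genes. The middle of the list, between its lower and upper quartiles, ran from -0.59 to -0.03. Of the 36, 28 had a ratio below 0, against 49.7% of all kept genes, and 29 lay below the median of all genes. The ERAD channel gene DERL2 was called at least 2-fold lower with an interval excluding 0, against 6.97% of all kept genes, and none of the 36 was called at least 2-fold higher, against 7.41%. At 1.5-fold, 9 genes were lower, or 25% of the list, against 16.0% of all kept genes, and none was higher, against 17.8%. With library totals in place of TMM, the genes called at 2-fold over the whole table split into 1023 higher and 1561 lower, against 1328 and 1248 here.

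Because the list is deeply sequenced (median of 5508 reads a gene), protein-coding genes with at least 100 reads are a closer comparison, though their median was 1355 reads. Of these 11277 genes, 49.6% had a ratio below 0, 3.48% were at least 2-fold lower and 5.34% at least 2-fold higher. Further, 14.3% were at least 1.5-fold lower and 17.7% at least 1.5-fold higher, and their median log2 ratio was also 0.01. On intervals counted in read pairs, 23 of the 36 genes, or 63.9%, lay wholly below 0, against 32.7% of these protein-coding genes and 26.2% of all kept genes. Another 4, or 11.1%, lay wholly above 0, against 34.7% and 27.7%, and 9 included 0. All intervals below are 95% counting intervals on read pairs and cover counting error only.

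**Figure D2:**
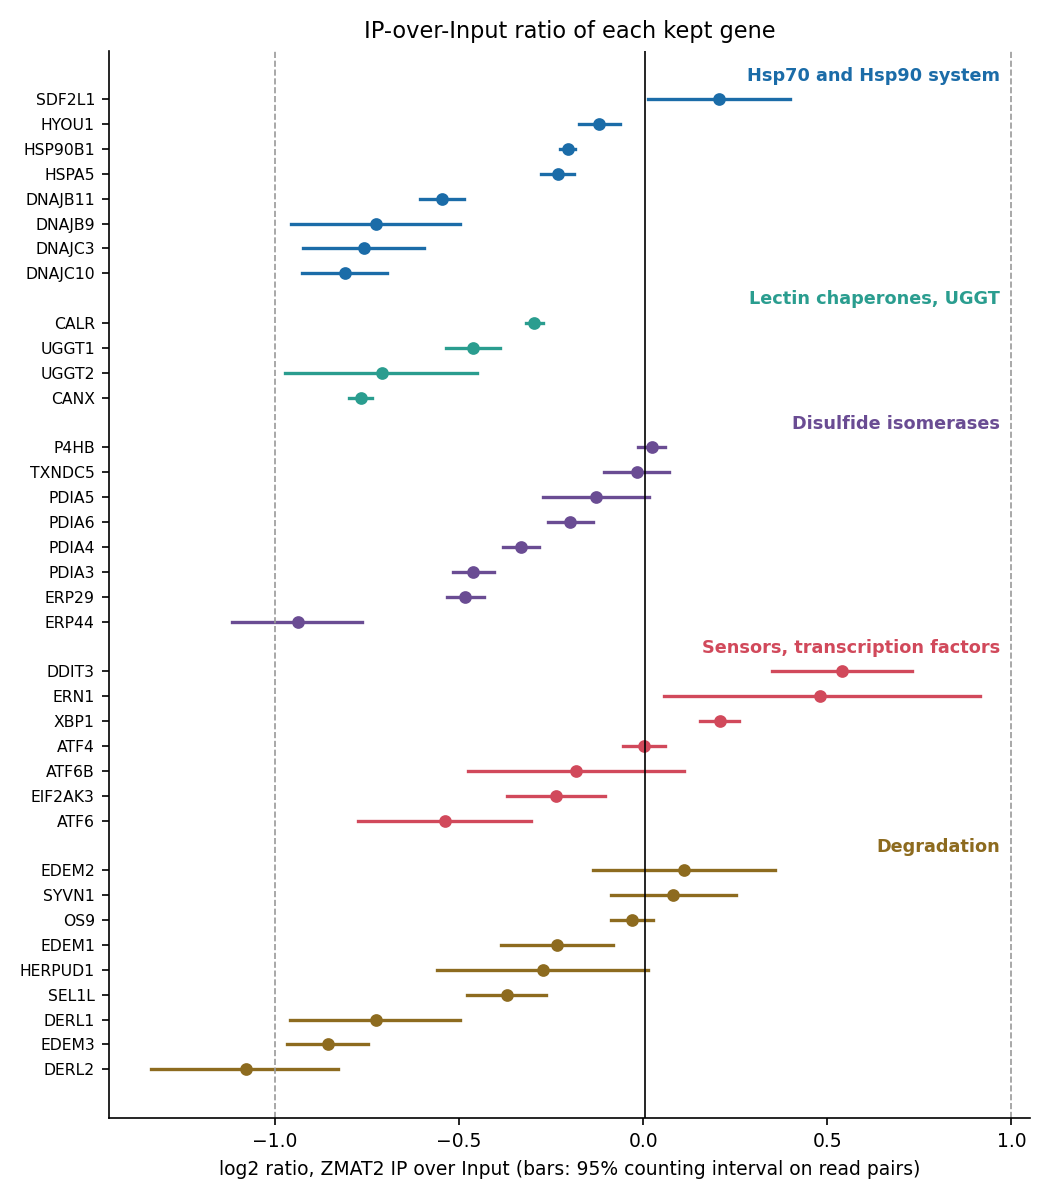
The log2 ratio of ZMAT2 IP over Input for each kept gene, with its 95% counting interval on read pairs, grouped by role. The solid line marks the median of all kept genes at 0.01 and the dashed lines 2-fold in each direction; DERL2, at -1.08, is the gene past the lower line.

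In the Hsp70 and Hsp90 system, the main chaperones stood slightly below Input and their J-domain partners lower still. HSPA5, at 125234853 to 125241330 on chromosome 9, had 14970 IP reads against 17735 Input reads, and a log2 ratio of -0.23 (-0.28 to -0.19). HSP90B1, at 103930107 to 103953645 on chromosome 12, had 73655 IP reads against 85668 Input reads, and a ratio of -0.21 (-0.23 to -0.19). These intervals overlap, so the ratios of both main chaperones were not separated by counting error. HYOU1, which exchanges nucleotide on HSPA5, had 9897 IP reads against 10848 Input reads (-0.12, -0.18 to -0.06).

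The J-domain proteins couple HSPA5 to its clients, and the 4 mRNAs for them had the lowest ratios of this system. DNAJB11 had 7426 IP reads against 10941 Input reads, a ratio of -0.55 (-0.61 to -0.49). DNAJB9, which is itself a strongly induced target of the response, had 504 IP reads against 841 Input reads (-0.73, -0.96 to -0.50). DNAJC3, known as an inhibitor of PERK-type kinases, had 976 IP reads against 1667 Input reads (-0.76, -0.92 to -0.60). DNAJC10, a reductase that clears wrong disulfides before degradation, had 1910 IP reads against 3381 Input reads (-0.81, -0.93 to -0.70). All 4 intervals lay below those of HSPA5, HSP90B1 and HYOU1, with no overlap. DNAJB11 shares exon bases with RP11-134F2.8 on the same strand (-0.72), and with RP11-573D15.8 (-0.45) and TBCCD1 (-0.16) on the opposite strand. DNAJB9 shares them with THAP5 (-1.10) and PNPLA8 (-0.57), both on the opposite strand. The part of those reads in the DNAJB11 and DNAJB9 ratios was not tested. SDF2L1, a partner of DNAJB11 in the lumen, went the other way, with 958 IP reads against 838 Input reads and a ratio of 0.21 (0.01 to 0.40). Its interval lay above that of every other gene of this system. The median of the 8 genes was -0.39.

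The lectin chaperones and the enzymes that return glycoproteins to them were all lower in the IP. Calreticulin (CALR) and calnexin (CANX) bind the same glycans, CALR in the lumen and CANX from the membrane, and their ratios differed. CALR, at 12938578 to 12944489 on chromosome 19, had 55930 IP reads against 69272 Input reads, and a ratio of -0.30 (-0.32 to -0.27). CANX, at 179678628 to 179730925 on chromosome 5, had 25386 IP reads against 43609 Input reads, and a ratio of -0.77 (-0.80 to -0.74). The intervals are far apart. UGGT1, the glucosyltransferase that senses misfolded glycoproteins, had 5205 IP reads against 7235 Input reads (-0.46, -0.54 to -0.39). Its paralogue UGGT2 had 398 IP reads against 657 Input reads (-0.71, -0.97 to -0.45), and these intervals overlap. The median of the 4 genes was -0.59.

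The disulfide isomerases and thioredoxin-like proteins ran from level with Input to about 2-fold lower. P4HB, the main protein disulfide isomerase and also a subunit of prolyl hydroxylase, had 25367 IP reads against 25189 Input reads, and a ratio of 0.02 (-0.01 to 0.06). TXNDC5 had 4157 IP reads against 4246 Input reads (-0.02, -0.11 to 0.07), but 60.6% of its exon bases lie in the readthrough gene BLOC1S5-TXNDC5, and reads there fit either gene. PDIA5 also had an interval that included 0 (-0.13, -0.27 to 0.02).

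The remaining isomerases had intervals below 0. PDIA6, an isomerase found with HSPA5, had 8276 IP reads against 9575 Input reads (-0.20, -0.26 to -0.14). It shares 25.2% of its exon bases with ATP6V1C2 on the opposite strand, which had a ratio of -0.85. The part of those reads in the PDIA6 ratio was not tested. PDIA4 (ERp72) had 11821 IP reads against 15017 Input reads (-0.33, -0.38 to -0.28). PDIA3 (ERp57), the isomerase that works with calnexin and calreticulin, had 9139 IP reads against 12697 Input reads (-0.46, -0.52 to -0.41). Its ratio lay between those of CALR and CANX. ERP29, a redox-inactive member, had 11407 IP reads against 16083 Input reads (-0.48, -0.53 to -0.43). ERP44, which retrieves unassembled proteins from the Golgi, had 813 IP reads against 1573 Input reads, and the lowest ratio of all 20 chaperone genes, -0.94 (-1.12 to -0.76). A lower ratio than that of ERP44 was held by 4.48% of protein-coding genes at or above 100 reads. The median of these 8 genes was -0.27.

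The sensors and transcription factors of the response had a median of 0.00 over 7 genes, with a range of -0.54 to 0.54 and no gene past 1.5-fold. The 3 genes XBP1, ATF4 and DDIT3 had a median of 0.21, and the 4 genes ATF6, ATF6B, ERN1 and EIF2AK3 one of -0.21. XBP1 and DDIT3 stood above Input and ATF4 level with it, at -0.10 with library totals in place of TMM. ATF6 and ATF6B, whose products become transcription factors when cleaved, are given with the membrane sensors. XBP1, at 28794555 to 28800597 on chromosome 22, had 12605 IP reads against 11014 Input reads, and a ratio of 0.21 (0.15 to 0.26). IRE1 cuts an intron from XBP1 mRNA in the cytoplasm, and gene counts do not tell the cut form from the uncut form. ATF4 had 9948 IP reads against 10027 Input reads (0.00, -0.06 to 0.06). DDIT3 (CHOP), which promotes cell death under long stress, had 1124 IP reads against 780 Input reads and the highest ratio of the 36 genes, 0.54 (0.35 to 0.73). It lies on chromosome 12 and shares 28.0% of its exon bases with MARS1 on the opposite strand, which had a ratio of 0.37, and the part of those reads in its ratio was not tested.

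Among the membrane sensors, ERN1 and ATF6 stood on opposite sides of Input. ERN1 had 223 IP reads against 161 Input reads, and a ratio of 0.48 (0.06 to 0.91), the widest interval of the list. ATF6 had 508 IP reads against 744 Input reads (-0.54, -0.77 to -0.30). Its paralogue ATF6B had 366 IP reads against 419 Input reads (-0.18, -0.48 to 0.11), which overlaps the interval of ATF6. EIF2AK3, the kinase that slows translation through eIF2, had 1722 IP reads against 2047 Input reads (-0.24, -0.37 to -0.10).

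Degradation genes spread most widely, from -1.08 to 0.11. Of the 9 kept, 5 had intervals below 0 and none above. DERL2, at the membrane channel through which misfolded proteins leave the ER, had 382 IP reads against 815 Input reads, and a ratio of -1.08 (-1.34 to -0.83), an IP level 0.473 times that of Input. Its interval includes 2-fold, so the counts do not settle on which side of 2-fold it lies. A lower ratio was held by 2.55% of protein-coding genes at or above 100 reads. Its paralogue DERL1 had 498 IP reads against 832 Input reads (-0.73, -0.96 to -0.50), and these intervals overlap. DERL3, the third paralogue, was left out by the minimum of 20 reads. Its 8 IP reads against 0 Input reads are too few to give a ratio.

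The EDEM proteins trim mannose from misfolded glycoproteins, and their mRNAs differed among themselves. EDEM3 had 2107 IP reads against 3851 Input reads (-0.86, -0.97 to -0.75). EDEM1 had 1307 IP reads against 1551 Input reads (-0.23, -0.39 to -0.08). EDEM2 had 567 IP reads against 530 Input reads (0.11, -0.14 to 0.36). The interval of EDEM3 lay below both others, and those of EDEM1 and EDEM2 overlap. OS9, the lectin that delivers trimmed glycoproteins to the ubiquitin ligase, had 9774 IP reads against 10066 Input reads (-0.03, -0.09 to 0.03). SYVN1 (HRD1), that ligase, had 1190 IP reads against 1134 Input reads (0.08, -0.09 to 0.25). FAU, on the same strand, shares 7.24% of the exon bases of SYVN1. It had 21598 IP reads against 15679 Input reads and a ratio of 0.47, and the part of those reads in the SYVN1 ratio was not tested. SEL1L, the partner of SYVN1, had 2484 IP reads against 3241 Input reads (-0.37, -0.48 to -0.26), below SYVN1 with no overlap. HERPUD1, which joins these proteins to the channel, had 374 IP reads against 456 Input reads (-0.27, -0.56 to 0.01).

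By function, the 20 lumenal and lectin chaperone genes had a median log2 ratio of -0.40 and the 9 degradation genes one of -0.27. The 7 sensors and transcription factors had one of 0.00, with -0.21 for the 4 membrane sensors and 0.21 for the 3 transcription factors. Of the chaperone genes 16 had an interval below 0 and 1 above, of the degradation genes 5 below and 0 above, and of the sensors and transcription factors 2 below and 3 above. Over all kept genes these shares were 26.2% below and 27.7% above, and over protein-coding genes with at least 100 reads 32.7% and 34.7%. Deeper genes have narrower intervals, and depth differed between the classes. Median reads a gene were 18109 for chaperones, 2324 for degradation genes and 1904 for sensors and transcription factors. Protein-coding genes with at least 100 reads had a median of 1355. Summed over reads and without TMM scaling, the chaperone genes took 1.08% of the IP library and 1.44% of Input. The sensors and transcription factors took 0.106% and 0.107%, most of it from XBP1 and ATF4. With TMM scaling, the log2 ratios of these sums were -0.32 for the chaperone genes and 0.09 for the sensors and transcription factors. These medians are set beside each other without a test.

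Other genes of the same pathways, from lists that were likewise made with earlier results of these data known, are given by counts, beside the 6.97% of all kept genes called 2-fold lower and the 7.41% called higher. Of 48 other folding helpers of the ER lumen, all kept, 1 (2.08%) was called at least 2-fold higher and 3 (6.25%) lower. Their median was -0.36. The share called lower is near that of all kept genes, and above the 3.48% of protein-coding genes with at least 100 reads. Of those protein-coding genes, 5.34% were called higher. The higher gene was QSOX1, a disulfide-forming oxidase with 226 IP reads against 111 Input reads, at 1.04 (0.56 to 1.53), and the lower genes were HSPA13 (-1.15), the retrieval receptor KDELR2 (-1.10) and SEC63 (-1.01), the J-domain partner of HSPA5 at the translocon. Calumenin (CALU), a calcium-binding protein with the most reads of that list, was at -0.84. Of 29 other signalling genes kept, 1 (3.45%) was higher and 3 (10.3%) lower, with a median of 0.01. TRIB3, a target of ATF4 and CHOP, had 978 IP reads against 469 Input reads and a ratio of 1.07 (0.85 to 1.30). MBTPS2, the protease that cleaves ATF6 after MBTPS1, was at -1.27, EIF2AK2 at -1.17 and CHAC1, with 12 IP reads against 27 Input reads, at -1.13 (-2.83 to 0.33). The call of CHAC1 holds on single reads only, since its interval on read pairs includes 0. EIF2AK1, with the most reads, was at -0.53. Exon bases shared with another gene were 12.2% in MBTPS2, 9.59% in EIF2AK1 and, among the folding helpers, 9.42% in KDELR2. Of 38 other degradation genes kept, none was higher and 1 (2.63%) lower, the ubiquitin-conjugating enzyme gene UBE2K at -1.06, with a median of -0.17. VCP, the segregase that pulls proteins out of the ER membrane, had 14425 IP reads against 9300 Input reads and a ratio of 0.65 (0.59 to 0.70).

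Lists of neighbouring machinery placed the ER genes between those of import and those of later transport. Over all kept genes 6.97% were called lower and 7.41% higher, and over protein-coding genes with at least 100 reads 3.48% and 5.34%. The ER translocation, signal peptidase and glycosylation genes had a median of -0.36 over 46 kept. None was called higher and 3 (6.52%) lower, near the share over all kept genes: SPCS3 (-1.54), SEC62 (-1.27) and SPCS2 (-1.04). Their gene with the most reads, the oligosaccharyltransferase subunit RPN1, was at -0.61. The COPI, COPII and cargo receptor genes had a median of 0.04 over 45 kept, with SEC16B the 1 gene higher (2.22% of the list) and none lower. SEC16B was at 1.06, with 59.8% of its exon bases shared. SEC13, their gene with the most reads, was at 0.52. The cytosolic chaperones and chaperonin subunits had a median of -0.03 over 45 kept and none called in either direction, with HSP90AB1 at -0.06. Below the median of all genes lay 29 of 36 genes of the ER list, 38 of 46 of the translocation list, 21 of 45 of the transport list and 24 of 45 of the cytosolic list. No difference between lists was tested.

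**Figure D3:**
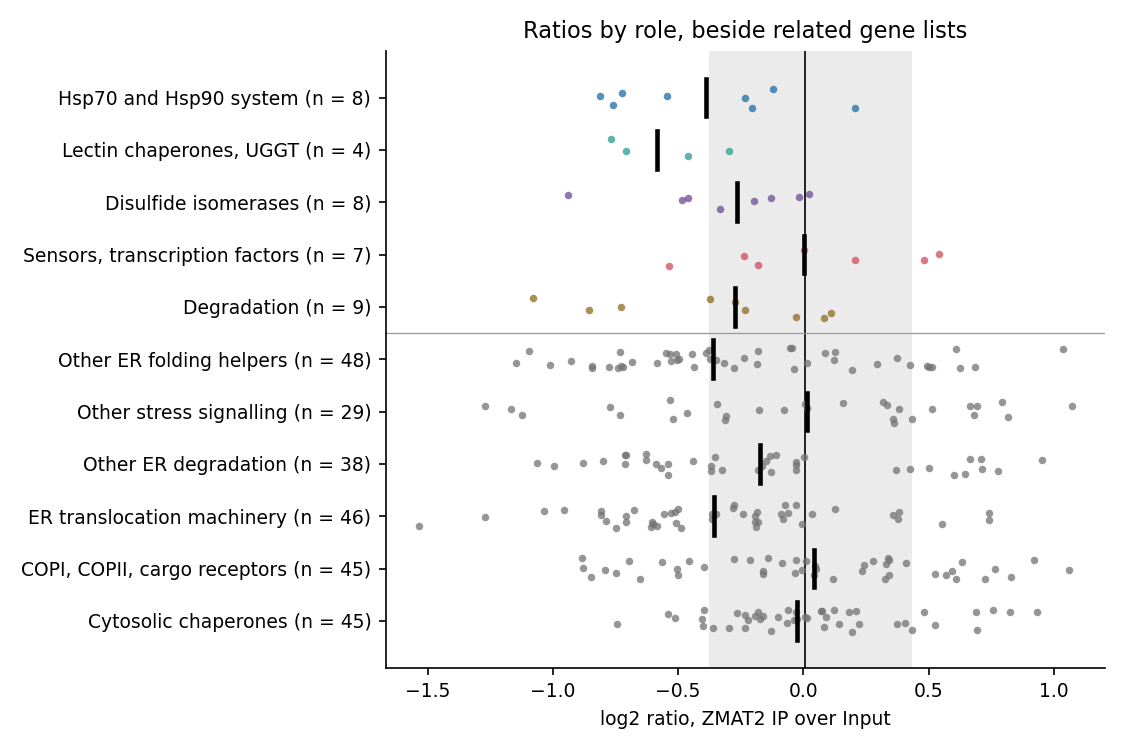
The log2 ratio of ZMAT2 IP over Input for each kept gene (points) and the median (bars) of the 5 role groups, above the line, and of 6 other lists, below it. The grey band spans the middle of protein-coding genes with at least 100 reads, from -0.37 to 0.43, and their median is the thin line; the chaperone and degradation roles, the other folding helpers, the other degradation genes, the translocation machinery and the cytosolic chaperones have medians left of the thin line, from -0.03 to -0.59, and the sensors, at 0.00, lie on it.

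The ratio was also set against gene structure, as a description over genes that share both libraries. Over the 36 genes its rank correlation (Spearman's rho) was -0.46 with merged exon length, -0.39 with gene span and 0.16 with the level in Input. Over protein-coding genes with at least 100 reads, rho was -0.08 with merged exon length, -0.22 with span and -0.16 with Input level. The 7 genes of the list with a span up to 10 kb had a median of 0.00, and the 11 with a span over 60 kb one of -0.54. Between them, the 13 genes from 10 to 30 kb had -0.27 and the 5 from 30 to 60 kb -0.20, so the middle classes did not follow span. XBP1, ATF4 and DDIT3 are among the 7 short genes, so span and role are not separated there. Protein-coding genes with at least 100 reads had medians of 0.24, 0.10, -0.08 and -0.15 by rising span class. The ER genes lay lower in each class. The shortest gene, SDF2L1 at 2.04 kb, stood above Input, but ERN1, at 91.7 kb, stood above it too. Of the 7 genes up to 10 kb, DNAJB9 (5.28 kb, -0.73), CALR (5.91 kb, -0.30) and HSPA5 (6.48 kb, -0.23) had intervals wholly below 0. The part of gene structure in the ratios was not tested.

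**Figure D4:**
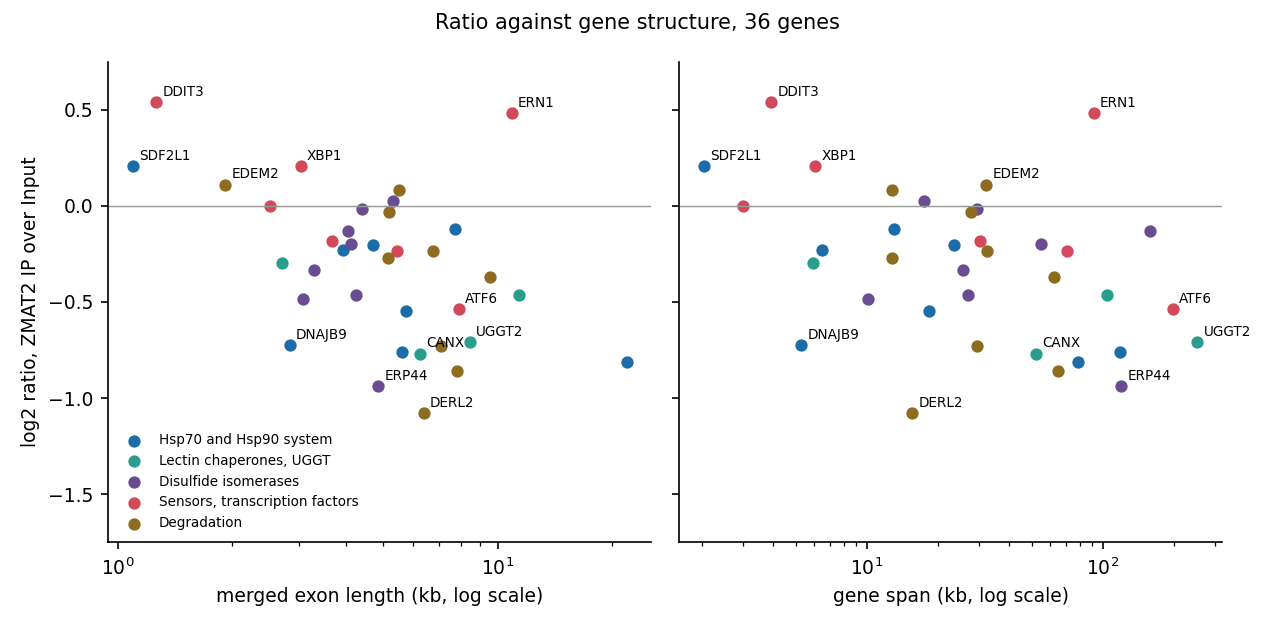
The log2 ratio of ZMAT2 IP over Input for the 36 kept genes against merged exon length (left) and gene span (right), both in kb on log axes, coloured by role. Ratios tend to be lower for longer genes (rho -0.46 and -0.39), and ERN1 at 0.48 and DNAJB9 at -0.73 lie away from that order.

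Shared sequence limits some of these values. At least 5% of exon bases are shared with another gene in 16 of the 37 genes, and whether the counting used strand is not given. Besides the shares given above, this was 23.2% in DNAJB11, 18.9% in PDIA3, 17.5% in ERP29, 15.1% in EIF2AK3, 13.5% in OS9 and 12.2% in PDIA5. In CALR, P4HB, EDEM1, HYOU1, DERL1 and DNAJB9 it ran from 6.45% to 9.98%. The 20 kept genes with less sharing had a median of -0.35 and the 16 others one of -0.22. Near-identical copies held few reads beside their source genes: HSP90B2P had 140 IP reads against 96 Input reads, PDIA3P1 100 and 143, and ATF4P3 12 and 11.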

How the data were processed

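RNA immunoprecipitation followed by sequencing was measured in 1 ZMAT2 IP and 1 Input library of HUH7 cells, grouped by their titles. The authors deposited raw read counts for each gene beside each gene's exon positions and length, per the file headers. Tools listed in the submitters' processing notes are fastp 0.23.4, STAR 2.5.3a, edgeR 3.12.1 and GRCh38, and for the counting tool, strand setting and annotation release a name is not given in the sources used here. RNA was extracted with TRIzol and a stranded mRNA kit used for the libraries, per the labels' protocols. Mates appear to have been counted singly, since 77.9% of IP counts and 67.1% of Input counts from 1 to 6 were even.

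Counts were scaled with TMM (edgeR 4.0.16, R 4.3.3) over genes whose summed count reached 20. Ratios took 0.5 as prior count. Each 95% interval was converted from an exact Clopper-Pearson interval for the share of a gene's reads that lay in the IP, and is printed with 2 reads taken as 1. Calls needed at least 2-fold (or 1.5-fold) and an interval on reads excluding 0. Shares of a library carry exact binomial intervals. With no molecular identifiers, reads are not independent molecules, and intervals and floors cover counting error only. With 1 library a group, no quasi-likelihood test was possible. The ratio script was tested on simulated data. Names were matched by symbol, older symbol and position to RefSeq genes (33451 and 1757 matched, 21095 did not), and promoter sequences are RefSeq's. DERL1, DERL3 and PDIA3 had no promoter entry.

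The members and lists were chosen with earlier results of these data known. All 37 genes are named; from the other lists, up to 5 genes called in each direction and the gene with the most reads; ZMAT2 was added. Alternatives changed the scaling, the minimum reads, the prior count, the counting unit and the genes with shared exons.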

Additional observations from a re-analysis of the deposited data

How the results depend on the processing

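Scaling by library totals moved the median of all genes by -0.11. Under it the medians were -0.36 for the list, -0.49 for the Hsp70 and Hsp90 system, -0.69 for the lectin group, -0.37 for the disulfide isomerases and -0.10 for sensors and transcription factors, and 2 genes were at least 2-fold lower, DERL2 and ERP44. Taken relative to the median of all genes, the list stayed at -0.26. P4HB, ATF4 and SYVN1, all close to 0, changed sign. With library totals SDF2L1 and ERN1 stayed above 0, at 0.10 and 0.38. Both moved down by more than their lower interval bounds on read pairs lay above 0. SDF2L1 did so with upper quartile scaling too, at 0.19. A minimum of 1 read added DERL3 as 1 gene at least 2-fold higher. With only genes sharing under 5% of exon bases, medians were -0.18 for the Hsp70 and Hsp90 system (5 genes), -0.66 for the lectin group (3), -0.58 for the disulfide isomerases (2) and 0.052 for sensors and transcription factors (5), where fewer genes enter and the scaling was redone. Over the whole table, 1328 genes were called 2-fold higher and 1248 lower as reported, 2004 and 2014 with a minimum of 1 read, 761 and 582 with 100 reads, 329 and 191 with 1000 reads, and 914 and 767 without shared exons. The median of the list ran from -0.36 to -0.22 over all settings. DESeq2 size factors, upper quartile scaling, minimums of 100 and 1000 reads, a prior count of 2 and read pairs gave list medians from -0.29 to -0.25 and 1 gene at least 2-fold lower. ATF4 changed sign with DESeq2 size factors, upper quartile scaling and a minimum of 100 reads. No paired analysis was possible because each group held 1 library, and for the same reason none could be left out. Counting depth limits ERN1, ATF6B and HERPUD1 most.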

Other observations

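Outside the list, 19 genes had ERSE letters in a RefSeq promoter window, and 11 of them were kept. Their median log2 ratio of ZMAT2 IP over Input was 0.09, with 4 of 11 below 0. Several also act in the ER, and the genes named here were chosen after their values were seen. CRELD2, a secreted ER stress protein, had 903 IP reads against 679 Input reads and a ratio of 0.42 (0.22 to 0.63). FICD, which modifies HSPA5 with AMP, had 314 IP reads against 243 Input reads (0.38, 0.03 to 0.74). SERP1, a small protein at the translocon, had 1055 IP reads against 1351 Input reads (-0.34, -0.51 to -0.18). ERO1B, an oxidase that recharges disulfide isomerases, had 40 reads in each library, with an interval of -0.96 to 0.98. ALG12, an ER mannosyltransferase, had 364 IP reads against 345 Input reads (0.09, -0.22 to 0.40). EIF2A, a translation initiation factor, had 1038 IP reads against 1959 Input reads and the lowest ratio whose interval excludes 0, -0.90 (-1.06 to -0.75). TRIM5 had 3237 IP reads against 2574 Input reads (0.34, 0.24 to 0.45) and SYNPO 372 against 223 (0.75, 0.40 to 1.10). The levels of the 11 genes in Input had a median of 2.34 RPKM, with EIF2A at 19.5 RPKM and TRIM5 above it, against a median of 237 RPKM for the 6 ERSE genes of the list.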
